A study of Mus musculus with 4 samples.

Results

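Foxp2 ganglion nuclei are nuclei of retinal ganglion cells, the output neurons of the retina, that hold messenger RNA of the forkhead transcription factor Foxp2. They were taken from single-nucleus RNA libraries of mouse retina by a rule on unique molecular identifiers (UMIs, the tags that mark single captured RNA molecules). A nucleus had at most 5% mitochondrial UMIs, at least 2 UMIs of Slc17a6 (the vesicular glutamate transporter of ganglion cells) and at least 4 UMIs over 8 ganglion genes with at least 2 of them detected. It had at most 2 UMIs of Gad1 and Gad2 together, at most 1 of Slc6a9 and at most 3 of Slc1a3, which limits amacrine cells and glia. Of 32326 barcodes, 1027 met these ganglion criteria, and 139 of the 1027 also had at least 3 Foxp2 UMIs and no UMI of Eomes. The comparison class, called other ganglion nuclei, held the 733 gated nuclei with no UMI of Foxp2, Eomes or Tbr1.

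The study profiled nuclear RNA of the retina of left eyes with the 10x droplet method, in mice of 5 months (2 libraries) and 2.5 months (2 libraries). No genotype is stated for the mice of 5 months, whereas those of 2.5 months are described as wild type. Each library carries a donor number and the series text calls its donors unrelated, so a library was treated as 1 animal. The series title speaks of human retina and its text of an eye bank, while the samples are labelled as mouse. The libraries of 5 months yielded 54 and 45 Foxp2 nuclei, and those of 2.5 months 21 and 19. No member shared its barcode with a member of another library. All 4 values of a class are given below in the order 5 months donor 1, 5 months donor 2, 2.5 months donor 1, 2.5 months donor 2. Levels are counts per 1000000 UMIs (CPM) of the nuclei of a class summed within a library. The class is chosen by RNA counts, so fewer nuclei of a subtype and less RNA per nucleus cannot be told apart in these sums.

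Ganglion cells collect signals from bipolar and amacrine cells and send them along the optic nerve, and in mice they divide into many types that differ in shape, synaptic partners and transcription factors. Foxp2 is a DNA-binding repressor best known from striatum, cerebellum and cortex. In the mouse retina it marks a group of small and mid-sized ganglion types that differ from one another in Foxp1 and in Brn3 (Pou4f) factors. AMPA, kainate and NMDA receptors carry the excitatory input of these cells, and GABA-A and glycine receptors carry inhibition from amacrine cells.

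The 3 genes given as markers of this class entered the rule, so their levels describe what was chosen and were not tested. Foxp2 itself, at chr6:14901349-15441977 of mm10, stood at 908, 786, 801 and 1203 CPM in Foxp2 nuclei, and at 0 in other ganglion nuclei by construction. Slc17a6, at chr7:51622006-51671119, stood at 353, 311, 452 and 385 CPM in Foxp2 nuclei, against 318, 283, 363 and 330 CPM in other ganglion nuclei. Pou4f1 (Brn3a, at chr14:104461676-104467999), a homeobox factor of many ganglion types, stood at 149, 106, 162 and 146 CPM in Foxp2 nuclei, against 90.6, 73.8, 98.4 and 105 CPM in other ganglion nuclei. The lowest Pou4f1 value of Foxp2 nuclei (105.8 CPM) lay next to the highest of other ganglion nuclei (105.5 CPM). Of 12 ganglion markers 4 did not enter the rule, and of these 0 were higher and 1, Ebf1, lower in Foxp2 nuclei. Isl1, a LIM homeobox factor, stood at 89.2, 169, 152 and 128 CPM in Foxp2 nuclei, against 100.6, 117, 103 and 81.8 CPM in other ganglion nuclei (log2 0.34, adjusted p of 0.27, edgeR). Gamma-synuclein, Sncg, stood at 116, 248, 196 and 72.8 CPM in Foxp2 nuclei, against 170, 240, 181 and 132 CPM in other ganglion nuclei (log2 -0.27, adjusted p of 0.40, edgeR). Both genes were present in every library, and their values overlapped between the classes.

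Of the other ganglion genes in the rule, Rbpms, an RNA-binding protein used as a pan-ganglion marker, averaged 1092 ± 135 CPM in Foxp2 nuclei and 1077 ± 68.1 CPM in other ganglion nuclei (SD, n = 4 libraries). Pou4f2 averaged 29.4 ± 11.1 CPM in Foxp2 nuclei and 31.7 ± 9.95 CPM in other ganglion nuclei, and Pou4f3 averaged 13.0 ± 8.58 and 13.0 ± 1.86 CPM in the same order. The amacrine gene Gad1, which the rule limits in ganglion nuclei and requires in the amacrine class, averaged 5.26 CPM in Foxp2 nuclei, 6.30 CPM in other ganglion nuclei and 306 CPM in 29 Foxp2-positive amacrine nuclei. Tbr1, which marks another ganglion group, had 1 UMI in all 139 members.

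**Figure D1:**
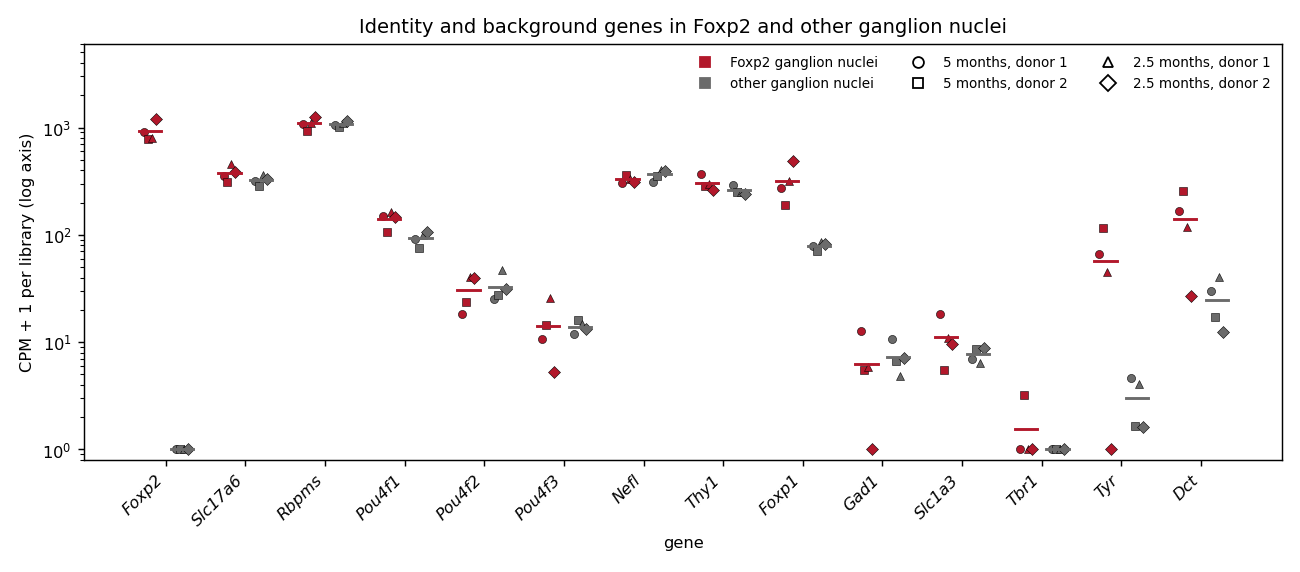
Levels of identity genes and of genes of other cell types, as CPM + 1 on a log axis, for each library (points) and as the mean over libraries (bars), in Foxp2 ganglion nuclei (red) and other ganglion nuclei (grey). Rbpms, Nefl and Slc17a6 lie close together in the classes, while Foxp1 and the pigment genes Tyr and Dct are higher on average in Foxp2 nuclei.

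The members held a median of 7, 8, 6 and 13 Foxp2 UMIs, and up to 36. Their median depth was 8122, 9439, 8997 and 11198 UMIs per nucleus, against 9564, 10474, 10703 and 13438 UMIs in other ganglion nuclei. Summed over nuclei, Foxp2 nuclei gave 515509, 444156, 203578 and 233623 UMIs. At the edge of the rule, 32 gated Eomes-free nuclei with 3 or 4 Foxp2 UMIs lay just inside and 74 with 1 or 2 lay just outside. The inside nuclei had 291 CPM of Gria1, the outside nuclei 109 CPM, nuclei with at least 10 Foxp2 UMIs 542 CPM and nuclei with none 45.9 CPM. Pde1a stood at 196, 32.3, 179.7 and 4.68 CPM in the same order, and Grin2a at 279, 573, 59.9 and 653 CPM. The nuclei just outside the threshold lay between the members and the nuclei without Foxp2 for these 3 genes.

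2 facts of the libraries bear on several results. Pigment nuclei of the same libraries, chosen by at least 10 UMIs of the melanin genes Tyr, Dct, Tyrp1, Pmel and Mlana, carried Foxp2 at 1442 CPM. At least 3 UMIs of these melanin genes were found in 15 of 139 Foxp2 nuclei (5, 6, 3 and 1) and in 23 of 733 other ganglion nuclei (3, 8, 12 and 0). The 6 melanocyte markers summed to 111 to 628 CPM in Foxp2 nuclei and to 153 to 194 CPM in other ganglion nuclei, with none of the 6 at 0. Rod markers summed to 1146 to 2569 CPM in Foxp2 nuclei and to 819 to 1933 CPM in other ganglion nuclei, with none of the 12 at 0. Müller glia markers summed to 265 to 495 CPM in Foxp2 nuclei and to 223 to 256 CPM in other ganglion nuclei, and bipolar markers to 360 to 468 and 262 to 311 CPM in the same order. The file headers name Cell Ranger 4.0.0 at 5 months and 7.1.0 at 2.5 months, and the effect of the version cannot be told apart from that of age.

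The first comparison asked which genes set Foxp2 nuclei apart from other ganglion nuclei of the same libraries. Among glutamate receptors, the AMPA subunit Gria1, the NMDA subunit Grin3a and the kainate subunit Grik3 were higher in Foxp2 nuclei, and the NMDA subunit Grin2a and the metabotropic receptors Grm5 and Grm8 were lower. The transcriptional regulators Lmo4, Tshz2 and Sox6 were higher, while Tfap2d, Satb1 and Irx6 were lower. Over all 10579 genes tested, 383 were higher (3.62%) and 354 lower (3.35%), so that 6.97% were called at an adjusted p under 0.05, and the median log2 fold change of all genes was -0.00. Without the first 5-month library 466 genes were called.

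Among ionotropic glutamate receptors, Gria1 (GluA1, chr11:57011387-57330244) stood at 415, 376, 496 and 800 CPM in Foxp2 nuclei, against 44.5, 43.8, 46.9 and 49.7 CPM in other ganglion nuclei. The lowest Foxp2 value was above every value of the other class. The log2 fold change was 3.40 ± 0.15 (SE), with an adjusted p of 6.2e-13 in edgeR's quasi-likelihood test with Benjamini-Hochberg adjustment. Grin3a (GluN3A, a subunit that lowers the calcium flow of NMDA receptors, chr4:49661611-49845744) stood at 407, 340, 776 and 882 CPM in Foxp2 nuclei, against 51.3, 46.8, 47.7 and 37.0 CPM in other ganglion nuclei. The 2.5-month values of Grin3a were the higher ones in Foxp2 nuclei, and again the classes did not overlap (log2 3.52 ± 0.20, adjusted p of 6.4e-11 in the same edgeR test). Grik3 (GluK3, a kainate receptor subunit) stood at 165, 146, 147 and 201 CPM in Foxp2 nuclei, against 27.7, 22.4, 30.0 and 46.7 CPM in other ganglion nuclei, a log2 fold change of 2.42 ± 0.16. Gria4, another AMPA subunit, rose by less, with a log2 fold change of 0.50 ± 0.10. Grin2a (GluN2A, the main partner of GluN1 in many mature neurons) ran the other way, at 196, 54.0, 118 and 81.3 CPM in Foxp2 nuclei, against 681, 585, 844 and 742 CPM in other ganglion nuclei, a log2 fold change of -2.67 ± 0.19. Every library had less Grin2a in its Foxp2 nuclei.

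The metabotropic receptors showed the same contrast between members. Grm5, which couples to phospholipase C, stood at 66.0, 56.3, 83.5 and 55.6 CPM in Foxp2 nuclei, against 206, 207, 187 and 257 CPM in other ganglion nuclei (log2 -1.75 ± 0.16, adjusted p of 1.1e-07, edgeR). Grm8, which lowers cyclic AMP, fell by 1.76, while its relative Grm4 rose by 0.97. The AMPA receptor auxiliary subunits Cacng2 (stargazin) and Cacng3 fell by 0.81 and 1.64. Grm4 (0.87 to 1.05 in fits that left out a library) and Cacng2 (-1.04 to -0.69) each lost the call in 1 of those 4 fits, without the first 5-month and without the first 2.5-month library. In all, 5 of 25 glutamate receptor genes tested were higher and 7 lower, with a list median of 0.16, against 3.62% higher and 3.35% lower over all genes.

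Detection in single nuclei gave the same order. With every nucleus thinned to 3000 UMIs, Gria1 was detected in 73 of 139 Foxp2 nuclei (52.5%, exact 95% interval 43.9 to 61.05%) and in 88 of 727 other ganglion nuclei (12.1%, 9.82 to 14.7%). In 522 rods with at least 3000 UMIs, thinned alike, the share was 22.6%. The source of the Gria1 signal in other ganglion nuclei and in rods was not tested. Grin3a was detected in 60.4% of Foxp2 nuclei, 10.9% of other ganglion nuclei and 6.32% of rods, and Grin2a in 13.7%, 67.0% and 5.56% in the same order. Without thinning Gria1 was detected in 73.4% of Foxp2 nuclei, 26.9% of other ganglion nuclei and 7.6% of all rods, which held fewer UMIs per nucleus. Thinning left out 0 Foxp2 nuclei, 6 other ganglion nuclei and 1940 rods. These intervals cover counting error only.

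GABA-A receptor subunits were called in either direction. Gabrb2 stood at 312, 313, 314 and 428 CPM in Foxp2 nuclei, against 207, 158, 179 and 183 CPM in other ganglion nuclei (log2 0.87 ± 0.12, adjusted p of 4.3e-05, edgeR). The classes did not overlap for this beta subunit. Other subunits were lower: Gabra2 fell by 0.91, Gabrb1 by 1.23 and Gabrg3 by 1.85 on the log2 scale. Gabra4 (log2 -2.68) was not called without the first 5-month library, and ran from -4.03 to -2.25 when 1 library was left out. Gabrg3 stood at 334, 230, 255 and 103 CPM in Foxp2 nuclei, against 741, 732, 932 and 978 CPM in other ganglion nuclei. Of the glycine receptor subunits, Glra3 rose by 0.98 and Glra2 fell by 1.57. Among 18 inhibitory receptor genes tested, 4 were higher and 5 lower, with a median of -0.31, against 3.62% higher and 3.35% lower over all genes.

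Receptors for other transmitters were called in 7 of 19 cases, 3 higher and 4 lower, against 6.97% of all genes. Htr2c, a serotonin receptor coupled to phospholipase C, stood at 67.9, 49.5, 14.7 and 85.6 CPM in Foxp2 nuclei, against 5.21, 5.01, 11.5 and 4.85 CPM in other ganglion nuclei (log2 3.15 ± 0.38, adjusted p of 3.9e-06, edgeR). The classes did not overlap, but the first 2.5-month library lay far below the other 3. The muscarinic receptor Chrm3 rose by 0.94, and the mu opioid receptor Oprm1 fell by 2.83 on the log2 scale. The substance P receptor Tacr1 (log2 1.53), the muscarinic receptor Chrm2 (-1.32), the cannabinoid receptor Cnr1 (-1.84) and the nicotinic subunit Chrna3 (-1.84) were called with all libraries and lost the call in 2 or 3 of the 4 fits that left out a library, with values there of 1.15 to 1.77 for Tacr1 and -2.70 to -1.02 for the other 3. Pigment nuclei held Chrm2 at 349 CPM, Tacr1 at 137 CPM and Chrna3 at 0.602 CPM. Without pigment-positive nuclei the log2 fold change of Chrm2 was -4.82 and that of Chrna3 -4.28, and Tacr1 (1.17, adjusted p of 0.19, edgeR) was not called. Tacr1 was not higher in Foxp2 nuclei of the second 2.5-month library.

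**Figure D2:**
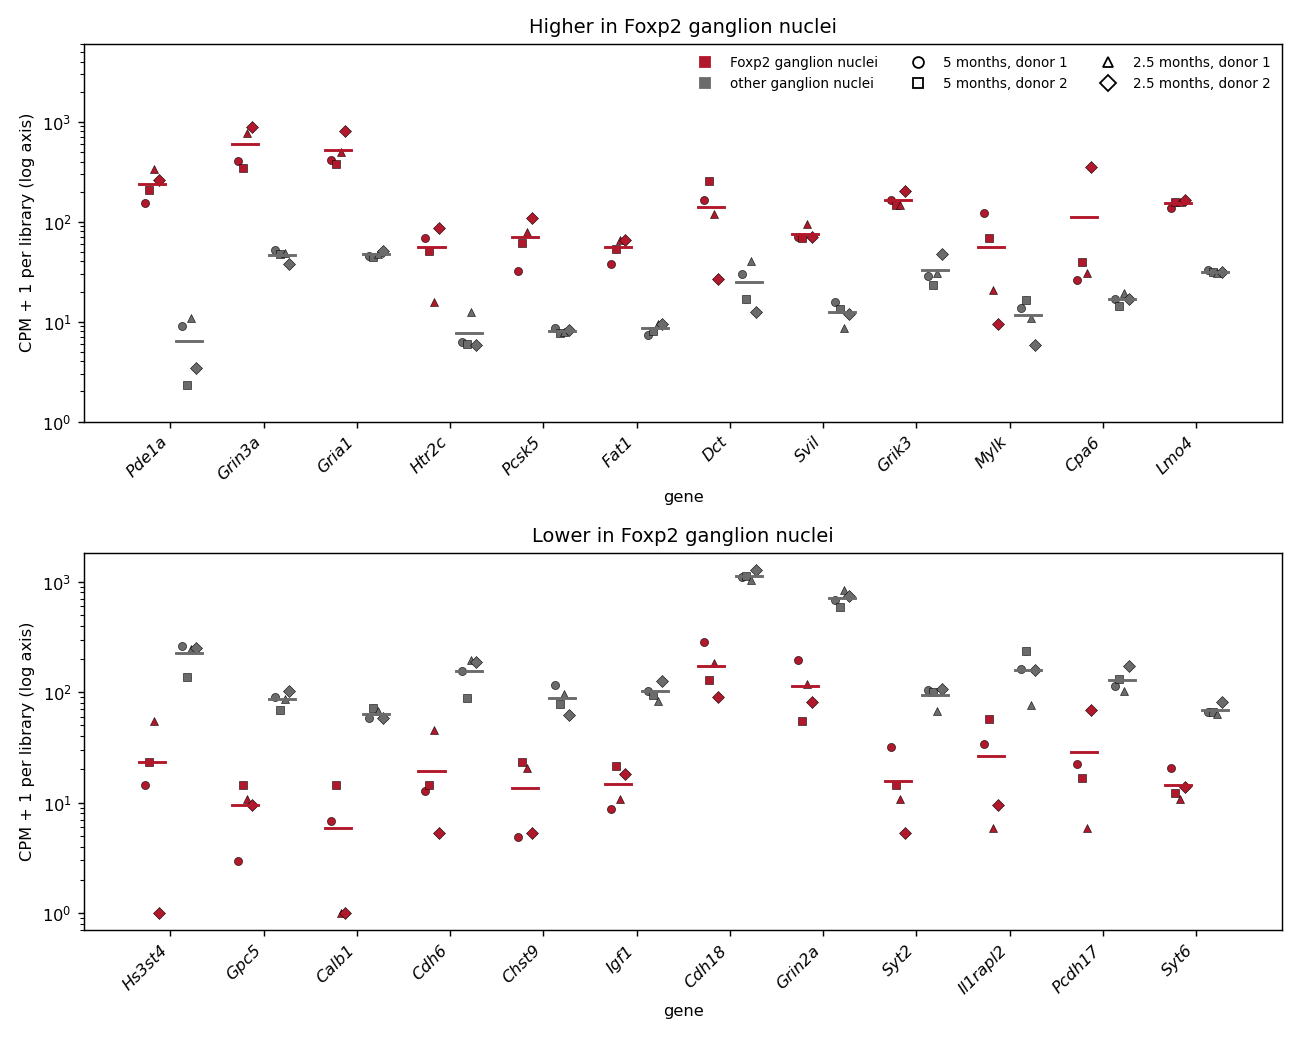
The 12 higher and 12 lower genes named by the rule for large changes, as CPM + 1 on a log axis for each library (points) and mean over libraries (bars), in Foxp2 ganglion nuclei (red) and other ganglion nuclei (grey). The rule required the 12 upper genes to be higher and the 12 lower genes lower in Foxp2 nuclei within every library. A single 2.5-month library carries Cpa6 at 351 CPM in its Foxp2 nuclei.

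Of 53 subtype transcription factors tested, 10 were higher and 13 lower, with a median of -0.18, against 3.62% higher and 3.35% lower over all genes. Foxp1, the closest relative of Foxp2 and a forkhead repressor (chr6:98925338-99522721), stood at 270, 187, 314 and 484 CPM in Foxp2 nuclei, against 76.9, 70.1, 85.3 and 80.6 CPM in other ganglion nuclei. Its lowest level in Foxp2 nuclei was above its highest level in other ganglion nuclei. Foxp1 is counted among the 10 higher factors (log2 1.90 ± 0.16, adjusted p of 2.4e-08, edgeR), and it also divides the members below. Lmo4, a LIM-only cofactor, stood at 136, 158, 157 and 163 CPM in Foxp2 nuclei, against 32.1, 30.1, 30.0 and 30.3 CPM in other ganglion nuclei (log2 2.28 ± 0.16, adjusted p of 1.5e-09, edgeR). Its levels differed little between libraries in either class. The zinc-finger homeobox factor Tshz2 rose by 1.73, the SOX factor Sox6 by 1.58, Zeb2 by 1.27, Bcl11a by 1.02, Mef2c by 0.76, Runx1t1 by 0.63 and the nuclear receptor Rora by 0.42. Sox6, Zeb2 and Foxp1 were also present in pigment nuclei, at 580, 639 and 381 CPM. Without pigment-positive nuclei their log2 fold changes were 1.71, 1.34 and 1.93 in the same order.

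The lower factors include several that mark other ganglion types in mice. Tfap2d, an AP-2 factor, stood at 52.4, 27.02, 29.5 and 17.1 CPM in Foxp2 nuclei, against 88.6, 97.9, 67.7 and 109.7 CPM in other ganglion nuclei (log2 -1.44 ± 0.23, adjusted p of 0.00017, edgeR). The classes did not overlap for it. Satb1, a chromatin organiser found in direction-selective ganglion cells, fell by 0.71. The Iroquois factor Irx6 had 1 UMI in all Foxp2 nuclei, against 127 UMIs in the larger class of other ganglion nuclei. Its mean was 0.485 CPM against 15.0 CPM (log2 -4.22, from -7.21 to -3.59 when 1 library was left out). Irx5 fell by 1.76, Etv1 by 2.67 and Ebf1 by 0.48. Etv1 averaged 3.47 CPM in Foxp2 nuclei, and its log2 fold change was -4.57 without the first 5-month library and -3.60 without pigment-positive nuclei. Ebf2, Onecut2, Tshz3 and Bcl11b, with log2 fold changes between -1.81 and -0.64, each lost the call in at least 1 of 4 fits that left out a library, as did Zfhx4 (0.47), with values there of -2.23 to -0.56 for the lower genes and 0.36 to 0.61 for Zfhx4. Ebf1 was still abundant in Foxp2 nuclei, at 1577 ± 173 CPM against 2160 ± 175 CPM in other ganglion nuclei (SD, n = 4 libraries). Zfhx4 and Bcl11b were not called without nuclei with at least 3 melanin UMIs (log2 0.40 and -0.85). Leaving out those nuclei left 9 factors higher and 17 lower, of 51 tested.

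Pde1a, which breaks down cyclic nucleotides when calcium rises (chr2:79834453-80129458), had the largest log2 fold change among the 12 named higher genes. It stood at 153, 205, 339 and 261 CPM in Foxp2 nuclei, against 8.01, 1.34, 9.99 and 2.42 CPM in other ganglion nuclei. The difference was 5.44 ± 0.27 on the log2 scale, with an adjusted p of 7.5e-12 in edgeR, and 6.08 without the first 5-month library. After thinning Pde1a was detected in 45 of 139 Foxp2 nuclei (32.4%), in 9 of 727 other ganglion nuclei (1.24%) and in 10.9% of rods. Pigment nuclei held Pde1a at 367 CPM, and its log2 fold change was 5.73 without pigment-positive nuclei. Pcsk5, a convertase that cuts protein precursors, had 31.0, 60.8, 78.6 and 107 CPM in Foxp2 nuclei, against 7.61, 6.68, 6.92 and 7.27 CPM in other ganglion nuclei (log2 3.09 ± 0.30). Fat1, a giant atypical cadherin, had a log2 fold change of 2.76 ± 0.28, and Svil, an actin-binding protein, one of 2.57 ± 0.25. Cpa6, a secreted carboxypeptidase, stood at 25.2, 38.3, 29.5 and 351 CPM in Foxp2 nuclei, against 16.0, 13.4, 18.4 and 15.8 CPM in other ganglion nuclei. Its log2 fold change of 2.31 was 0.97 without the second 2.5-month library and no longer called.

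Pigment genes moved with the class. Dct, an enzyme of melanin synthesis, stood at 165, 254, 118 and 25.7 CPM in Foxp2 nuclei, against 28.9, 16.0, 39.2 and 11.5 CPM in other ganglion nuclei (log2 2.69 ± 0.27, adjusted p of 3.3e-07, edgeR). Mylk, the kinase of smooth muscle myosin, stood at 122, 67.5, 19.6 and 8.56 CPM in Foxp2 nuclei, against 12.8, 15.4, 9.99 and 4.85 CPM in other ganglion nuclei (log2 2.36 ± 0.31). Of 6 melanocyte markers 5 were higher and Mitf lower. Pigment nuclei held Dct at 5285 CPM and Mylk at 2649 CPM. Without the second 5-month library the log2 fold change of Dct was 2.03, and without the first that of Mylk was 1.71. Without pigment-positive nuclei Dct had a log2 fold change of 0.47 (adjusted p of 0.61, edgeR) and Mylk one of -0.30. Tyrp1 and Pmel were then at 0.55 and -0.10 and not called. Dct, Tyrp1 and Pmel are among the genes that define pigment-positive nuclei, so a smaller difference in them follows from leaving those nuclei out. The cation channel Trpm1, at 1595 CPM in pigment nuclei, had a log2 fold change of 1.93 with all nuclei and of 0.49 without the pigment-positive ones, and was then not called. Gria1, Grin3a and Grik3 had log2 fold changes of 3.51, 3.65 and 2.50 in the same nuclei. Of the 737 called genes, 612 were also called without the pigment-positive nuclei, when 691 were called in all. Rod genes moved too, and 4 of 12 rod markers were called higher, with a median of 0.45, against 3.62% of all genes called higher. The part of rod RNA in the other results was not tested.

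**Figure D3:**
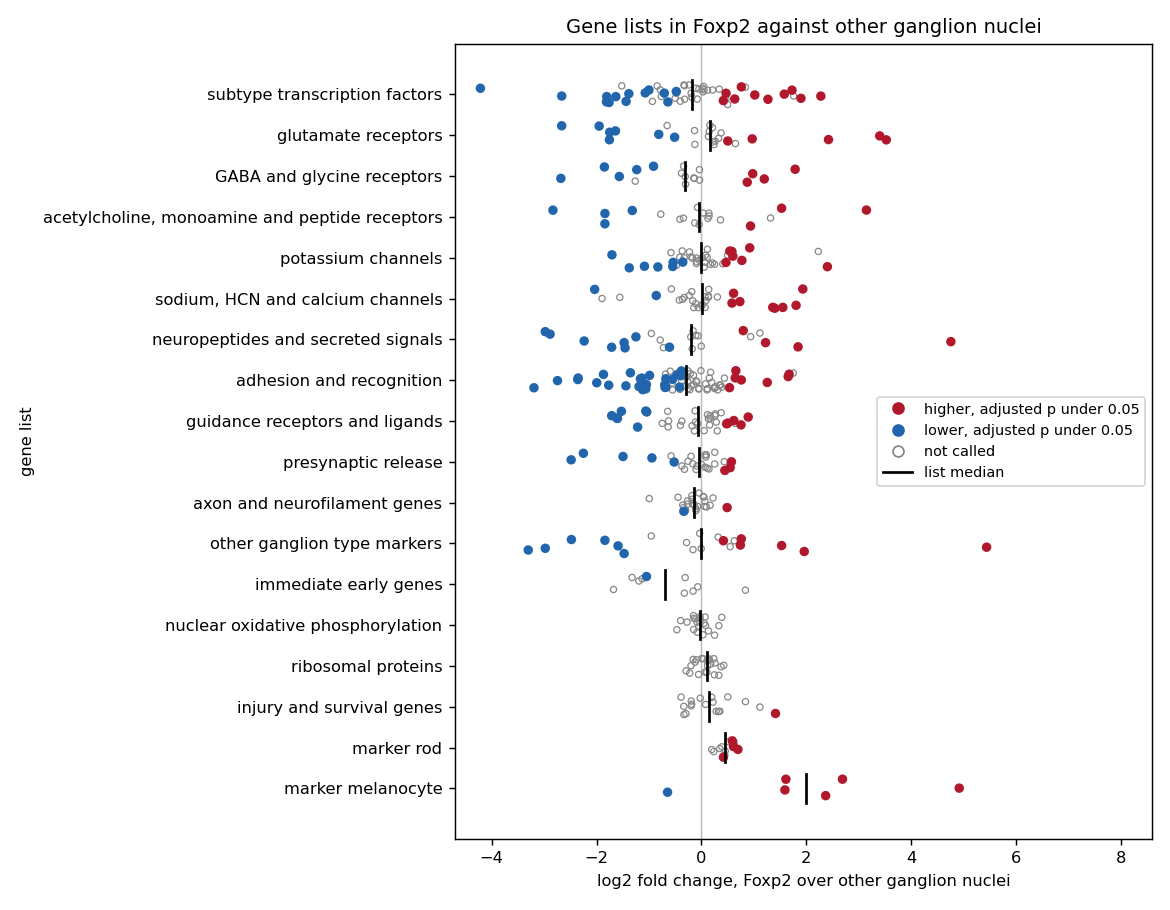
Log2 fold changes of Foxp2 over other ganglion nuclei for the tested genes of 18 lists, with filled points for called genes (red higher, blue lower), open points for genes that were not called and a black bar for each list's median. Adhesion genes lie mostly left of 0, receptor and channel lists spread to either side, and oxidative phosphorylation and ribosomal genes cluster around 0 with no call.

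Ion channel genes were called in either direction, and the shares over all genes were 3.62% higher and 3.35% lower. Of 38 potassium channel genes 7 were higher and 7 lower, with a median of -0.01. Kcnip4, a calcium-binding partner of A-type channels, stood at 23113, 20243, 25769 and 42543 CPM in Foxp2 nuclei, against 13208, 11501, 15439 and 16013 CPM in other ganglion nuclei (log2 0.92 ± 0.09, adjusted p of 4.4e-07, edgeR). The silent subunit Kcns3 rose by 2.40, while the ether-a-go-go channels Kcnh7 and Kcnh1 fell by 1.38 and 1.71 and the axonal channel Kcna1 by 1.09. Without the second 5-month library the log2 fold change of Kcnh1 was -2.35. Of 31 sodium, HCN, calcium and TRP channel genes 8 were higher and 2 lower, with a median of 0.02. The T-type calcium channels Cacna1i and Cacna1g, which open at low voltage, rose by 1.36 and 0.58, and the R-type channel Cacna1e by 1.80. Cacna1g lost the call without either 5-month library (lowest log2 0.53) and Cacna1e without the second 5-month or the first 2.5-month library (lowest 1.33). Cacna1i stood at 58.2, 56.3, 39.3 and 171 CPM in Foxp2 nuclei, against 36.1, 20.7, 33.1 and 26.7 CPM in other ganglion nuclei, so the second 2.5-month library was the highest by far, and without it the log2 fold change was 0.84 and still called. The cation channel Trpc5 rose by 1.55, and its relative Trpc6 fell by 2.04.

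Of the 72 adhesion and recognition genes, 25 were lower and 7 higher, with a median of -0.29, against 3.35% lower and 3.62% higher over all genes. Pcdh9, a protocadherin, stood at 1515, 1288, 1881 and 1738 CPM in Foxp2 nuclei, against 5742, 5418, 6789 and 7213 CPM in other ganglion nuclei, with no overlap. Its adjusted p was 6.2e-13 in edgeR's quasi-likelihood test, and its mean was 1606 ± 260 CPM in Foxp2 nuclei and 6290 ± 849 CPM in other ganglion nuclei (SD, n = 4 libraries). Cdh18, a classical cadherin, stood at 283, 128, 182 and 89.9 CPM in Foxp2 nuclei, against 1108, 1118, 1029 and 1283 CPM in other ganglion nuclei (log2 -2.75 ± 0.18). Cdh6, which marks direction-selective ganglion cells in mice, stood at 11.6, 13.5, 44.2 and 4.28 CPM in Foxp2 nuclei, against 154, 87.2, 195 and 185 CPM in other ganglion nuclei (log2 -3.19 ± 0.26). The contactin Cntn5 fell by 1.44, the teneurin Tenm2 by 1.16, Dscam by 0.99, Kirrel3 by 1.77 and the protocadherin Pcdh17 by 2.35. Against this direction, Pcdh10 rose by 1.25 and Dscaml1, the homologue of Dscam, by 1.67. Without the first 5-month library the log2 fold change of Kirrel3 was -2.73. The named lower genes also held Hs3st4 (a sulfotransferase, log2 -3.43 ± 0.29), the glypican Gpc5 (-3.41 ± 0.32), the sulfotransferase Chst9 (-2.91 ± 0.32) and the receptor-like Il1rapl2 (-2.48 ± 0.21). Without the second 5-month library Gpc5 was at -4.08 and Chst9 at -3.71, without the first Chst9 was at -2.22, and without pigment-positive nuclei Hs3st4 was at -4.42.

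Of 35 guidance genes 5 were higher and 7 lower, with a median of -0.07, against 3.62% higher and 3.35% lower over all genes. The semaphorin receptor Plxna2 rose by 0.89, the netrin receptor Unc5c by 0.75, the ephrin Efna5 by 0.62, and the ephrin receptor Epha5 by 0.50. The repellent Slit2 fell by 1.53 and the neuropilin Nrp2 by 1.04. Nrp1 (0.48) and Slit1 (-1.71) lost the call in 2 of 4 fits that left out a library, with values there of 0.36 to 0.58 and -2.89 to -1.19. Among 23 neuropeptide and secreted-signal genes 4 were higher and 8 lower, with a median of -0.20, beside the same shares over all genes. Tac1, the precursor of substance P, stood at 62.1, 92.3, 103 and 38.5 CPM in Foxp2 nuclei, against 12.4, 28.7, 23.1 and 17.0 CPM in other ganglion nuclei (log2 1.84 ± 0.22, adjusted p of 3.2e-06, edgeR). Sema3d, a secreted semaphorin, had 46 UMIs in Foxp2 nuclei and 10 in other ganglion nuclei, a log2 fold change of 4.76 ± 0.61. Sema3a, of the same family, fell by 2.24. When 1 library was left out Sema3d ran from 4.11 to 6.08, moving by over 1.5-fold without the second library of either age, and Sema3a was at -3.61 without the first 5-month library and at -2.90 without pigment-positive nuclei. Igf1, a growth factor found in alpha ganglion cells, stood at 7.76, 20.3, 9.82 and 17.1 CPM in Foxp2 nuclei, against 101, 94.2, 82.3 and 125 CPM in other ganglion nuclei (log2 -2.89 ± 0.25).

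Genes used as markers of named ganglion types were called in 12 of 21 cases, 6 in either direction. Spp1 (osteopontin), a marker of alpha ganglion cells, had 7 UMIs in Foxp2 nuclei and 333 in other ganglion nuclei (log2 -2.98 ± 0.41, adjusted p of 2.4e-05, edgeR). Cartpt, a peptide of direction-selective cells, fell by 1.48, and the calcium buffer calbindin, Calb1, by 3.30, with 9 UMIs in all Foxp2 nuclei. Calretinin, Calb2, stood at 601, 867, 1036 and 655 CPM in Foxp2 nuclei, against 430, 448, 499 and 444 CPM in other ganglion nuclei (log2 0.74 ± 0.11). The protease inhibitor Serpine2 rose by 1.96. The vesicle proteins Syt2 and Syt6 fell by 2.49 and 2.25, and Sv2c stood at 109, 72.0, 68.8 and 107 CPM in Foxp2 nuclei, against 266, 206, 251 and 290.3 CPM in other ganglion nuclei, in a presynaptic list with 3 of 26 genes higher and 5 lower. Without the first 5-month library the log2 fold change of Syt2 was -3.20, and without the second that of Spp1 was -3.72 and that of Calb1 -4.20. Of 25 axon and neurofilament genes 1 was higher and 1 lower, a share near the 6.97% of all genes. None of 21 oxidative phosphorylation genes and none of 22 ribosomal protein genes was called by edgeR, and their medians were -0.03 and 0.10. Of 10 immediate early genes 1 was lower, and of 18 injury and survival genes 1 was higher.

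The second comparison asked how the members vary among themselves, using Foxp1, which the rule did not use. Of the 139 members, 60 had at least 3 Foxp1 UMIs, 40 had none and 39 had 1 or 2. The split is a range on a count and not a cell type, and 39 nuclei lie near its edges. Foxp1-high nuclei numbered 24, 16, 10 and 10, against 17, 14, 5 and 4 Foxp1-zero nuclei. Their median depth was 8468, 9420, 9514 and 14554 UMIs, against 8558, 8471, 6842 and 10764 UMIs in Foxp1-zero nuclei. The part of this depth gap at 2.5 months in the results was not tested.

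Of 3509 genes tested between the Foxp1 ranges, 52 were higher and 35 lower in Foxp1-high nuclei, so that 2.48% were called (1.48% higher, 0.997% lower). Pde1a stood at 221, 338, 286 and 435 CPM in Foxp1-high nuclei, against 59.8, 15.5, 0 and 0 CPM in Foxp1-zero nuclei (log2 3.37 ± 0.50, adjusted p of 0.0015, edgeR). Gria1 stood at 687, 596, 562 and 1275 CPM in Foxp1-high nuclei, against 159, 179, 158 and 0 CPM in Foxp1-zero nuclei (log2 2.42 ± 0.42). Grin3a stood at 579, 570, 1105 and 1340 CPM in Foxp1-high nuclei, against 146, 186, 67.6 and 118 CPM in Foxp1-zero nuclei (log2 2.50 ± 0.34). All 3 genes were higher in the Foxp1-high nuclei of every library, with no overlap. Grik3 and Lmo4, which were also higher in Foxp2 than in other ganglion nuclei, were not called here (log2 0.85 and 0.47, adjusted p of 0.27 and 0.71, edgeR).

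Adhesion and guidance genes were called on either side. The type II cadherins Cdh8 and Cdh12 rose by 3.60 and 3.07, and Cdh12 stood at 404, 431, 419 and 606 CPM in Foxp1-high nuclei, against 66.4, 77.7, 0 and 23.6 CPM in Foxp1-zero nuclei. Csmd3, a large transmembrane protein, stood at 1956, 2338, 3230 and 4453 CPM in Foxp1-high nuclei, against 186, 753, 293 and 23.6 CPM in Foxp1-zero nuclei (log2 3.29 ± 0.46, adjusted p of 0.0014, edgeR). The Slit receptor Robo1 rose by 2.72, Plxna2 by 1.83 and the secreted protein Nell1 by 3.10. In all 6 of 58 adhesion genes tested were higher and 5 lower, with a median of -0.21, against -0.01 over all genes. The shares over all genes were 1.48% higher and 0.997% lower.

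Foxp1-zero nuclei held their own set. Zfp804b, a zinc-finger protein, stood at 520, 417, 238 and 221 CPM in Foxp1-high nuclei, against 3653, 2314, 1734 and 3584 CPM in Foxp1-zero nuclei (log2 -2.97 ± 0.25, adjusted p of 1.2e-05, edgeR). The 39 nuclei between them had 2342, 1204, 277 and 4876 CPM, so that they were not intermediate in every library. The factor Bcl11a stood at 37.5, 6.62, 19.1 and 14.2 CPM in Foxp1-high nuclei, against 120, 116, 270 and 141 CPM in Foxp1-zero nuclei (log2 -2.71 ± 0.46). The factor Ebf3 fell by 2.48 and the GABA-A subunit Gabrg3 by 3.14. The log2 fold changes of the vesicle protein Sv2c and of Crhr1, the receptor of corticotropin-releasing hormone, were -3.03 and -3.00. Of 24 transcription factors tested 0 were higher and 3 lower, against 1.48% higher and 0.997% lower over all genes. Pou4f3 was a rule gene and was not tested. It stood at 12.5, 0, 0 and 0 CPM in Foxp1-high nuclei, against 0, 31.1, 113 and 23.6 CPM in Foxp1-zero nuclei. These levels rest on 3 and 10 UMIs in the same order. After thinning, Pou4f3 was detected in 4 members with Foxp1 (5.88%) and in 2 without (2.82%), which is the other direction. With so few UMIs no difference in Pou4f3 can be read from these values.

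**Figure D4:**
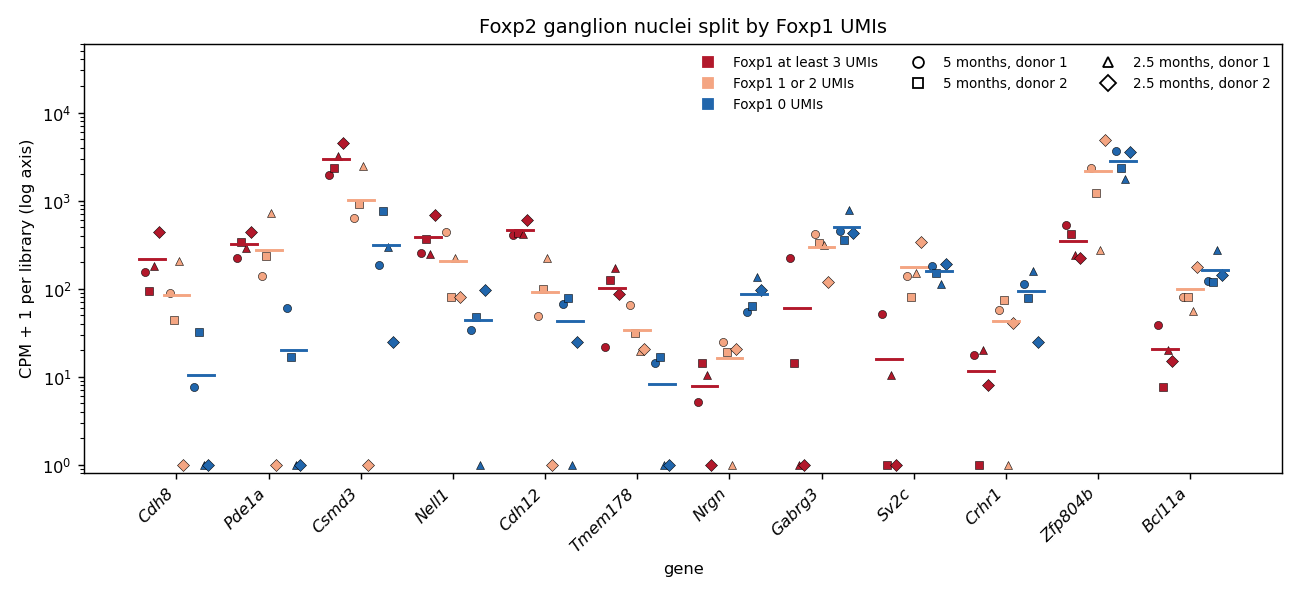
The 6 higher and 6 lower named genes of the Foxp1 comparison, as CPM + 1 on a log axis for each library (points) and mean over libraries (bars), in Foxp2 nuclei with at least 3 Foxp1 UMIs (red), 1 or 2 (orange) and none (blue). The red and blue values do not overlap for any of the 12 genes, and the middle range reaches into both for several of them, such as Zfp804b and Csmd3.

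These calls rest on few nuclei. Without the first 5-month library 25 genes were called and without the second 30, against 87 with all libraries, while 145 were called without pigment-positive nuclei. Tmem178 (log2 2.86) and the postsynaptic protein Nrgn (log2 -3.35) were called in none of the fits that left out a library, and Crhr1 in 1 of them. Gria1, Cdh8, Csmd3 and Plxna2 were not called without the first 5-month library, Gabrg3, Sv2c and Robo1 not without the second, and Ebf3 not without the second 5-month or the first 2.5-month library. Without the first 5-month library the log2 fold change of Gabrg3 was -6.22, that of Sv2c -5.27, that of Robo1 3.87, that of Tmem178 3.71, that of Bcl11a -3.54 and that of Pde1a 5.14, and without the second that of Cdh8 was 5.39, that of Csmd3 4.12 and that of Nrgn -3.96. Ebf3 ran from -4.34 to -1.83 and Gabrg3 from -6.22 to -2.47 when 1 library was left out, each moving by over 1.5-fold without the first library of either age. Without pigment-positive nuclei the log2 fold change of Gabrg3 was -5.13, that of Nrgn -4.45 and that of Cdh8 4.47. In nuclei thinned to 3000 UMIs, Gria1 was detected in 73.5% of the 68 members with Foxp1 and in 32.4% of the 71 without, and Zfp804b in 35.3% and 67.6% in the same order.

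The third comparison asked what differed between mice of 5 months and of 2.5 months within Foxp2 nuclei. Foxp2 nuclei made up 15.9 and 12.4% of all gated ganglion nuclei at 5 months, with exact 95% intervals of 12.2 to 20.3% and 9.19 to 16.2%, against 13.0 and 11.6% at 2.5 months, with intervals of 8.26 to 19.2% and 7.12 to 17.5%. The means differed by 1.85 points (two-sided exact permutation p of 0.67, and the smallest that 4 libraries allow is 0.33). Gated ganglion nuclei as a whole were 4.498 and 3.64% of nuclei at 5 months, against 2.18 and 2.21% at 2.5 months. The nuclear RNA Malat1 took 107569 and 136006 CPM of Foxp2 nuclei at 5 months, against 73918 and 58736 CPM at 2.5 months, and its part in the age results was not tested.

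Few genes differed with age. Of 5908 genes tested, 14 were higher (0.237%) and 4 lower (0.0677%) at 5 months, so that 0.305% were called, and 407 had an unadjusted p under 0.05. Bdnf, a neurotrophin that supports ganglion cells, stood at 25.2 and 29.3 CPM in Foxp2 nuclei at 5 months, against 172 and 103 CPM at 2.5 months (log2 -2.26 ± 0.40, adjusted p of 0.010, edgeR). In other ganglion nuclei Bdnf stood at 93.0 and 80.5 CPM at 5 months, against 138 and 124 CPM at 2.5 months, and the difference between the classes was not called (log2 -1.75, adjusted p of 0.10, edgeR). Cmss1, a gene of ribosomal RNA processing, stood at 1509 and 2321 CPM at 5 months, against 378 and 441 CPM at 2.5 months (log2 2.27 ± 0.28, adjusted p of 0.00016, edgeR). Cmss1 also rose in other ganglion nuclei, by 2.52, and Cdk8, a kinase of the Mediator complex, rose by 1.57 in Foxp2 nuclei and 1.06 in other ganglion nuclei.

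Further genes differed between the ages in Foxp2 nuclei. Frmd5, a membrane-skeleton protein, stood at 242 and 189 CPM at 5 months, against 63.9 and 12.8 CPM at 2.5 months (log2 2.59 ± 0.41, adjusted p of 0.0040, edgeR). Of the 2.5-month libraries, leaving out the first gave a log2 fold change of 4.01 and leaving out the second one of 1.85, and Frmd5 was not called without pigment-positive nuclei (log2 2.32, adjusted p of 0.12, edgeR). The calcium release channel Ryr3 rose by 2.43, Lars2, a mitochondrial leucyl-tRNA synthetase, by 1.72 and the zinc-finger protein Zmat4 by 1.37. In other ganglion nuclei Lars2 rose by 1.14 and Ryr3 by 0.44, and neither was called there (adjusted p of 0.33 and 0.76, edgeR). Pld5, of the phospholipase D family, stood at 62.1 and 54.0 CPM at 5 months, against 152 and 176 CPM at 2.5 months (log2 -1.44 ± 0.31), and the protocadherin Pcdh11x fell by 1.36. The ages do not overlap for these genes because the rule for names required it. Bdnf, Cmss1 and Frmd5 were called in all 4 fits that left out a library. The other 10 named genes lost the call in 1 to 3 of those fits, and the log2 fold change of Pcdh11x was -0.84 without the second 2.5-month library.

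4 of the named higher genes stood higher in pigment nuclei than in Foxp2-positive amacrine nuclei and in rods. Cmss1, which is not among them, was abundant in pigment nuclei too (1662 CPM) and stood at 2377 CPM in rods. Gpnmb, a melanosome and macrophage protein, stood at 50.4 and 51.8 CPM in Foxp2 nuclei at 5 months, against 4.91 and 0 CPM at 2.5 months (log2 4.32 ± 0.89, adjusted p of 0.034, edgeR). Without the second 2.5-month library its log2 fold change was 3.38, without the first it was 7.35, and of the 4 fits that left out a library it was called in that last one alone. Npsr1, the receptor of neuropeptide S, rose by 3.54, Pdzrn3, a ubiquitin ligase, by 3.01 and Mylk by 2.81 (3.41 without the first 2.5-month library). Pigment nuclei held Gpnmb at 1711 CPM, Npsr1 at 613 CPM, Pdzrn3 at 849 CPM and Mylk at 2649 CPM, and without pigment-positive nuclei these 4 genes fell under the filter on low counts. Pigment-positive nuclei were 9.26 and 13.3% of Foxp2 nuclei at 5 months, against 14.3 and 5.26% at 2.5 months.

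The other 5 called genes did not meet the rule for names and are given after their values were seen: Gm42418 and Gm44511 rose in both classes of nuclei, Coch and Mecom had 0 UMIs in both 2.5-month libraries, and Cpa6 was high in a single 2.5-month library. Of 30 transcription factors, 30 potassium channel genes and 23 glutamate receptor genes tested, 0 were called by edgeR, with medians of -0.13, 0.07 and -0.00 against 0.01 over all genes. Of 63 adhesion genes 1 was lower. With 0.305% of all genes called, 0 or 1 call in lists of this size does not set them apart. Leaving out pigment-positive nuclei gave 5 called genes, 4 of them among the 18, with Cmss1 and Bdnf still called. Ryr3, Lars2, Cdk8, Zmat4 and Pcdh11x were then not called, with log2 fold changes of 2.15, 1.74, 1.45, 1.23 and -1.12. Leaving out the second 5-month library gave 32 calls, the first 2.5-month library 70 and the second 67. After thinning to 3000 UMIs 3 genes were called.

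Whether the age difference itself differed between the classes was tested as an interaction. Of 10579 genes 4 were called (0.0378%), 2 higher (0.0189%) and 2 lower (0.0189%), and 607 had an unadjusted p under 0.05. Grin3a was among them: Foxp2 nuclei had 407 and 340 CPM at 5 months, against 776 and 882 CPM at 2.5 months, while other ganglion nuclei had 51.3 and 46.8 CPM at 5 months, against 47.7 and 37.0 CPM at 2.5 months. The age difference of Grin3a within Foxp2 nuclei was not called (log2 -1.10, adjusted p of 0.071, edgeR). No gene was called in the interaction by DESeq2, with RLE scaling, after thinning or without pigment-positive nuclei, when the interaction of Grin3a was -1.25, against -1.41 with all nuclei.

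**Figure D5:**
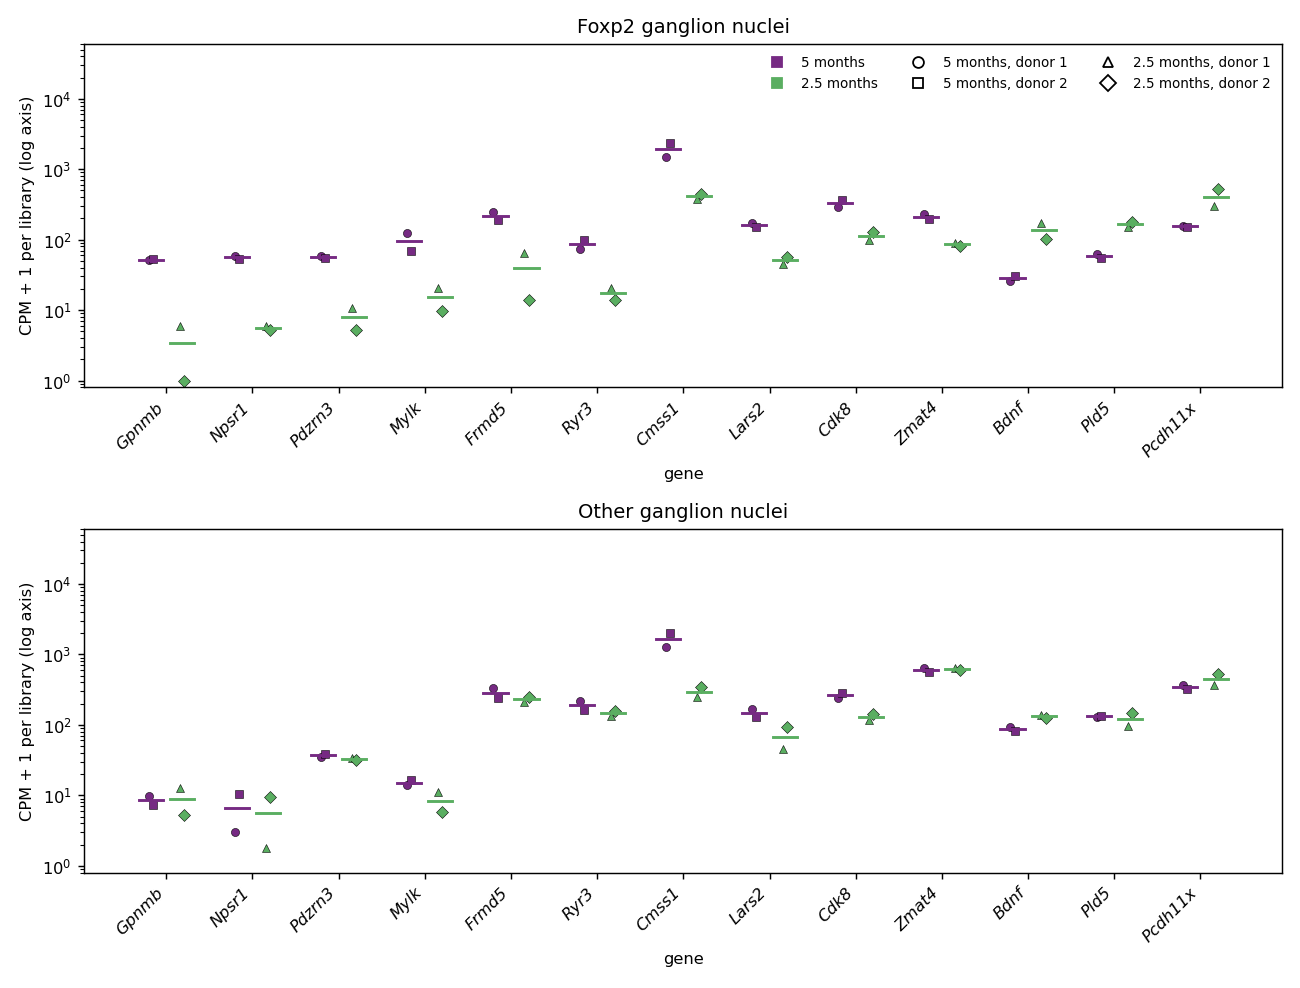
The 13 genes named for the age comparison, as CPM + 1 on a log axis for each library (points) and mean of 2 libraries (bars), at 5 months (purple) and 2.5 months (green), in Foxp2 ganglion nuclei (top) and other ganglion nuclei (bottom). The rule for names required the ages to be separated in the top panel. Cmss1 and Cdk8 differ between ages in the bottom panel too, while Frmd5, Zmat4 and Pld5 lie close together there. Lars2, Bdnf, Mylk, Ryr3 and Pdzrn3 are also separated by age in the bottom panel, without a call.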

How the data were processed

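The authors deposited 10x matrices of UMI counts per gene and barcode, unnormalized, for 4 libraries with 31053 genes. Per the file headers they were made with Cell Ranger 4.0.0 (5 months) and 7.1.0 (2.5 months), and per the labels with mm10. Whether introns were counted, and how strand was used, is not given in the sources used here. The libraries held 7404 to 9963 barcodes and 19608067 to 36320257 UMIs, and 32299 of 32326 barcodes passed the mitochondrial limit. Doublets were not removed in the main analysis. A scrublet score above 0.25 marked 9 of 139 Foxp2 nuclei and 16 of 733 other ganglion nuclei.

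Counts of the nuclei of each class were summed per library. They were tested with edgeR 4.0.16 in R 4.3.3: TMM scaling, the filterByExpr filter, the quasi-likelihood test and Benjamini-Hochberg adjustment over all genes tested, with an adjusted p under 0.05 as the call. Comparisons of classes within a library carried the library as a block, and the age comparison did not. The SE of a log2 fold change was back-calculated as its absolute value divided by the square root of the test's F statistic. The scripts were tested on simulated data. The labels number separate donors. In the comparisons of classes the p-values measure how the difference between the classes varied over the libraries of 4 animals. In the age comparison they measure the spread between animals of the same age. The named genes of a comparison were those with the largest log2 fold change among called genes of at least 50 CPM in the higher group that changed the same way in all libraries, 12 in either direction against other ganglion nuclei, 6 in the Foxp1 comparison and 10 with age, leaving out clone symbols, together with called members of the gene lists. The members and lists were chosen with earlier results of these data known. Shares were compared by an exact permutation test, and intervals are exact 95% binomial ones that cover counting error only. Gene positions come from GENCODE on GRCm38, and 30934 of 31053 gene IDs matched. Of 59 named genes, 26 overlap another annotated gene, among them Cmss1 with Filip1l and Grin3a with Ppp3r2. Donor numbers recur at both ages, but same-numbered libraries did not deviate together (r of -0.08 over 5908 genes) and the labels do not pair them. Nuclei with at least 3 melanin UMIs were left out as an alternative chosen after seeing the data. A comparison with Tbr1 ganglion nuclei was planned and not run, since 1 nucleus had at least 3 Tbr1 UMIs. Some called genes of the lists are not reported here.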

Additional observations from a re-analysis of the deposited data

Results flagged for a closer look

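For 4 genes the age difference in Foxp2 nuclei departed from that in other ganglion nuclei, by the interaction term of edgeR's quasi-likelihood test, each with an adjusted p of 0.027. Frmd5 had 242 and 189 CPM in Foxp2 nuclei at 5 months, against 63.9 and 12.8 CPM at 2.5 months, and 333 and 238 CPM in other ganglion nuclei at 5 months, against 209 and 250.3 CPM at 2.5 months, an interaction of 2.22 ± 0.40 on the log2 scale. It was 1.35 and not called without the second 2.5-month library, and 3.79 without the first. Tcf4, a basic helix-loop-helix factor, had 219 and 137 CPM in Foxp2 nuclei at 5 months, against 78.6 and 64.2 CPM at 2.5 months, and 326 and 270 CPM in other ganglion nuclei at 5 months, against 389.8 and 389.7 CPM at 2.5 months (interaction 1.68 ± 0.30, and 1.46 and not called without the first 5-month library). Pld5 had 62.1 and 54.0 CPM in Foxp2 nuclei at 5 months, against 152 and 176 CPM at 2.5 months, and 129 and 133 CPM in other ganglion nuclei at 5 months, against 96.9 and 144 CPM at 2.5 months (interaction -1.64 ± 0.30, and -1.52 and not called without the second 5-month library). Grin3a, whose levels are given above, had an interaction of -1.41 ± 0.25, and was not called without the second 5-month library (-1.33) or the second 2.5-month library (-1.06). The pigment nuclei held Pld5 at 461 CPM, Tcf4 at 517 CPM, Frmd5 at 98.7 CPM and Grin3a at 7.86 CPM. Without pigment-positive nuclei the interaction was 2.04 for Frmd5, 1.26 for Tcf4, -1.75 for Pld5 and -1.25 for Grin3a, and none of the 4 was called, with adjusted p from 0.12 to 0.46 in edgeR.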

How the results depend on the processing

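Of the 737 genes called between Foxp2 and other ganglion nuclei, DESeq2 1.42.0 called 436 among its 437, thinning to 3000 UMIs gave 307, leaving out 1 library gave 466 to 688, and the other 6 alternatives gave 659 to 899. Mylk turned to -0.30 without pigment-positive nuclei. Of the alternatives for the 18 age calls, the replicate block gave 33, leaving out 1 library 26 to 70, no filter on low counts 71, a Foxp2 minimum of 5 UMIs 11, Gad1, Gad2 and Slc6a9 at 0 gave 5, the scrublet limit 9, DESeq2 9, thinning 3 and leaving out pigment-positive nuclei 5. The 4 interaction calls became 13 to 60 when 1 library was left out, 50 without the filter, 8 with Gad1, Gad2 and Slc6a9 at 0, and 0 with RLE scaling, DESeq2, thinning or pigment-positive nuclei left out. The 87 Foxp1 calls became 25 to 64 when 1 library was left out, 40 with DESeq2, 152 without the filter, 53 after thinning and 145 without pigment-positive nuclei. The share difference of 1.85 points ran from 0.0823 to 3.61 points when 1 library was left out, was -0.0254 points at a Foxp2 minimum of 5 UMIs and -4.81 points after thinning. The cause of these shifts was not tested. The Foxp1-zero range rests on 4 and 5 nuclei in the 2.5-month libraries, which limits what can be detected there.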
